A study of Mus musculus with 15 samples.

Results

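The 10 genes described here encode the mouse machinery that loads peptides onto MHC class I molecules: the heavy chains *H2-K1* and *H2-D1*, the light chain *B2m*, the peptide transporter subunits *Tap1* and *Tap2*, the loading factor *Tapbp*, the immunoproteasome subunits *Psmb8*, *Psmb9* and *Psmb10*, and the transactivator *Nlrc5*. They were taken by gene symbol, with no threshold on their values, and are 10 of the 26509 genes listed in at least 1 of the count tables. All 10 had a row in both tables, among 20910 genes for cultured mouse retinal pigment epithelium (mRPE) cells and 25038 genes for RPE/choroid, and all 10 passed the filter on low counts in every comparison.

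Class I molecules carry fragments of the proteins made in a cell to its surface, where CD8+ T cells read them. Interferon-inducible catalytic subunits replace their constitutive counterparts in the proteasome, the resulting peptides are pumped into the endoplasmic reticulum by the TAP heterodimer, tapasin holds the transporter next to the empty class I molecule, and *Nlrc5* drives transcription of most of these genes through the SXY module of their promoters. In the eye, which is an immune-privileged site, the RPE forms part of the outer blood-retinal barrier and raises class I when exposed to interferon.

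The study asked what loss of *Prom1*, a pentaspan membrane glycoprotein, does to the RPE, in 9 mRPE and 6 RPE/choroid libraries. The mRPE cells came from pooled C57BL/6J mice aged 8 to 12 weeks and were immortalised with lentiviral HPV E6/E7, so every mRPE group carries these oncogenes. Of the mRPE libraries, 4 were WT, 3 were of clone KO22 and 2 of clone KO26. The clones were made by transfecting a synthetic guide to exon 5 of *Prom1* into cells that stably expressed lentiviral Cas9, and each line is 1 clone, so clone and genotype cannot be told apart within a line. The paper also describes Cas9-expressing cells given a scrambled guide, used beside the *Prom1* guide when genomic DNA was checked. Whether the WT libraries came from such cells was not given in the sources used here. The library names carry 2 submission numbers, with 1 WT, 1 KO22 and 1 KO26 library in 8995 and 3 WT, 2 KO22 and 1 KO26 libraries in 9262. The paper names the KO26 library of each number as an outlier that batch correction did not resolve, and describes removing both. It proposes biological differences or technical faults as the reason. No other KO26 library exists here, so every KO26 value and every difference between the clones rests on libraries the paper set aside. For RPE/choroid, mice with loxP-flanked *Prom1* (Prom1fl/fl) were crossed with RPE65-Cre mice and gavaged with tamoxifen, and 3 WT and 3 KO libraries carry the submission number 12965. Age, sex, strain and the Cre, floxed and tamoxifen status of the WT mice were not given in the sources used here. Nothing states that libraries of a group came from separate cultures or animals, so p-values measure the spread between these libraries, which may be technical.

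Total counts ran from 8076188 to 27537863 in mRPE and from 48154444 to 61766179 in RPE/choroid. KO replicate 3 of RPE/choroid stood apart, with 80.4% of its counts in mitochondrial rRNA against 55.3% to 63.2% in the other RPE/choroid libraries and 11.1% to 19.0% in mRPE. *Prom1* was not analysed here in mRPE. In RPE/choroid it was at 48.7, 49.6 and 53.3 CPM (counts scaled to library size, by TMM) in WT and at 49.9, 48.1 and 35.5 CPM in KO, so the targeted gene overlapped between the groups (log2 fold change -0.18 ± 0.16 SE, adjusted p = 0.824). Of 11 RPE markers, 8, among them *Rpe65*, *Rlbp1* and *Lrat*, had no row in the mRPE table used here, nor had the melanocyte marker *Mlana*. The 5 stromal markers, among them *Col1a1* and *Pdgfra*, summed to 11007 to 15454 CPM in WT, 3417 to 4734 CPM in KO22 and 16784 to 18463 CPM in KO26. The 5 endothelial markers listed summed to 153 to 238 CPM in WT, 4.76 to 6.12 CPM in KO22 and 57.4 to 75.6 CPM in KO26. *Kdr* made up most of the WT and KO26 sums, at a mean of 177 CPM in WT, 2.21 CPM in KO22 and 63.8 CPM in KO26. *Pecam1* was at 0.438, 0.37 and 0.487 CPM. In KO22 *Tek* was lower than in WT (0.19 against 1.07 CPM) and *Plvap* was higher (1.17 against 0.297 CPM). The part of these marker differences in the member values was not tested. Of 16 leukocyte markers, 13, among them *Ptprc*, likewise had no row in the mRPE table, and the other 3 summed to 8.16 to 13.9 CPM.

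The promoters of the heavy chains and of *B2m* are shown first because the class I genes are known to share a module that Nlrc5 acts on. Each line gives the 250 bases before the RefSeq start site, 5′ to 3′, matched exactly and once to GRCm39, with the X2 box core TGACG and the Y box core CCAAT in capitals on either strand. The *Tap1* sequence is shown because it is also the *Psmb9* promoter, read from the other strand, and the log2 fold changes of these genes in KO22 were 0.52 (*Tap1*) and -0.09 (*Psmb9*). For *H2-D1*, *B2m* and *Tap1* the RefSeq start site lies inside the annotated gene limits given after the motifs.
H2-K1 (chr17:34219322-34219571, minus strand): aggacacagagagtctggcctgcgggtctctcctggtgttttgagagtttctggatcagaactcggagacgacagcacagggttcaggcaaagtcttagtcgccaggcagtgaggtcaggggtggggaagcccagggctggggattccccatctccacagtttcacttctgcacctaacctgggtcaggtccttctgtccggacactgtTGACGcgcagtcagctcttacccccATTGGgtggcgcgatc
H2-D1 (chr17:35481820-35482069, plus strand): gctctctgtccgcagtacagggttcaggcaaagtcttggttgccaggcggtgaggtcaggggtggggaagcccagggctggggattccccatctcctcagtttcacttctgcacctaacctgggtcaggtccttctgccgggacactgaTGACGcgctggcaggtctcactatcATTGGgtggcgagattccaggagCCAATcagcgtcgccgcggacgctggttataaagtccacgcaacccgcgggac
B2m (chr2:121977918-121978167, plus strand): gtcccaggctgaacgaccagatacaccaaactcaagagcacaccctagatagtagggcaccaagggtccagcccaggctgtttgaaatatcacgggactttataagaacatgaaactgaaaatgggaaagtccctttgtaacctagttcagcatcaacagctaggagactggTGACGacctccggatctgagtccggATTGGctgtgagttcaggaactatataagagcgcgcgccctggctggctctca
Tap1 (chr17:34406280-34406529, plus strand): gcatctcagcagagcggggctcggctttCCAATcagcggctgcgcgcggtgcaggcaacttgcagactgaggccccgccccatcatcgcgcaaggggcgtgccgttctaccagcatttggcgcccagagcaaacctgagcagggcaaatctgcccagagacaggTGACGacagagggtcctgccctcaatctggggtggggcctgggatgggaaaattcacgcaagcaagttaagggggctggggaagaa

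An X2 core was followed after exactly 20 bases by a Y core on the other strand in *H2-K1*, *H2-D1* and *B2m*, starting 41, 101 and 78 bases before the start site. This arrangement, chosen after the positions of both cores were seen, was in 0.0944% of the 32851 RefSeq promoter windows of 300 bases (250 before and 50 after the start site). Windows were listed for 8 members, and *Nlrc5* and *Tap2* were not among them. Taken singly and on both strands, TGACG was in 5 of the 8 member windows and in 20.8% of all windows, CCAAT in 6 and 37.4%, the NF-kappaB core (GGG, 5 free bases, CC) in 5 and 50.8%, the GAS letters TTCNNNGAA in 1 (*Psmb8*) and 8.3%, and the ISRE core (GAAA, 2 free bases, GAAA) in 1 (*B2m*) and 3.44%. *Psmb10* had none of these 5 motifs in its window. Only these exact letters were counted, so a variant of a motif in any window, those of the heavy chains included, would be missed. The 250-base *Tap1* and *Psmb9* windows overlapped over 225 bases, and the annotated genes themselves overlap over 743 bases at chr17:34405996-34406738 on opposite strands. The strand setting of the counting was not given in the sources used here, so it is not known how reads from that stretch were counted for these genes.

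In GRCm39, 7 members lie in the MHC on chromosome 17, from *Tapbp* (chr17:34134873-34148267) through *H2-K1* (chr17:34214987-34219321), *Psmb9* (chr17:34400960-34406738), *Tap1* (chr17:34405996-34416199), *Psmb8* (chr17:34416690-34420428) and *Tap2* (chr17:34422501-34435829) to *H2-D1* (chr17:35481691-35486475). *B2m* is on chromosome 2 (chr2:121977957-121983594), and *Nlrc5* (chr8:95160984-95253900) and *Psmb10* (chr8:106662362-106665077) are on chromosome 8. Class I heavy chains have near-identical relatives, so a read may match more than a single gene. Of all 150-base stretches of the protein-coding transcripts, 0.161% for *H2-K1* and 0.903% for *H2-D1* were found letter for letter in another gene, *H2-Q10* and *H2-Q1* respectively, and 0 for the other 8 members.

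Levels of different members were compared per kilobase of exon. In WT mRPE cells the light chain *B2m* stood highest, at 1104 ± 403 CPM per kb (SD, n = 4), followed by *H2-K1* at 117 ± 54.8 and *H2-D1* at 95.1 ± 42.9, which did not differ beyond their spread. *Tapbp*, which encodes tapasin, was at 34.8 ± 2.51 CPM per kb and *Psmb10* at 27.9 ± 1.28. *Psmb8* at 14.6 ± 3.54, *Tap1* at 9.69 ± 4.71 and *Psmb9* at 6.16 ± 1.87 CPM per kb overlapped with their neighbours in that order, as did *Nlrc5* at 3.09 ± 1.86 and *Tap2* at 2.68 ± 0.769. In WT RPE/choroid, measured in a table normalised separately, *B2m* was again the highest at 146 ± 19.1 CPM per kb (SD, n = 3) and *Nlrc5* the lowest at 0.267 ± 0.0552. *H2-D1* at 19.4 ± 2.16 CPM per kb lay above *H2-K1* at 9.41 ± 1.45 there, whereas *H2-K1* lay above *H2-D1* in each of the 4 WT mRPE libraries.

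In both *Prom1*-KO clones the classical heavy chains *H2-K1* and *H2-D1* were higher than in WT mRPE cells by adjusted p, by 2.07-fold to 2.59-fold. In KO26 this did not hold without single libraries named with each gene. With no term for the submission number it did not hold in KO22, nor for *H2-K1* in KO26. *Nlrc5*, *Tap2* and *Psmb9* differed between the clones in a direct test. In KO22 the transactivator *Nlrc5* rose most, *Tap2* was lower by adjusted p alone and *Psmb9* had a log2 fold change of -0.09. In KO26 *Psmb9*, *Psmb8* and *Tap1* rose, and all 10 members had a positive log2 fold change. A gene was called at an adjusted p under 0.05 with an absolute log2 fold change over 1.2. In KO22, 3 of the 10 members rose (beside 11.4% of all 20455 genes tested) and 0 fell (13.8%), with 8 higher and 1 lower at an unadjusted p under 0.05 (58.4% of all genes, either way) and 3 and 0 called by DESeq2. By adjusted p alone 7 members were higher (26.9% of all genes) and 1 lower (26.1%). In KO26, 4 of 10 members rose (1.21% of 20737 genes) and 0 fell (0.719%), with 10 higher and 0 lower at an unadjusted p under 0.05 (20.1% of all genes, either way) and 4 and 0 called by DESeq2. By adjusted p alone 5 were higher (2.36%) and 0 lower (1.13%). The median log2 fold change of the members was 0.86 in KO22 against -0.03 over all genes, and 0.98 in KO26 against 0.03. Both comparisons use the same 4 WT libraries. With the 9262 libraries alone, 1 member was called in each clone, where KO26 had 1 library that was assumed to vary like the other groups, and with no term for the submission number 1 was called in KO22 and 0 in KO26.

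**Figure D1:**
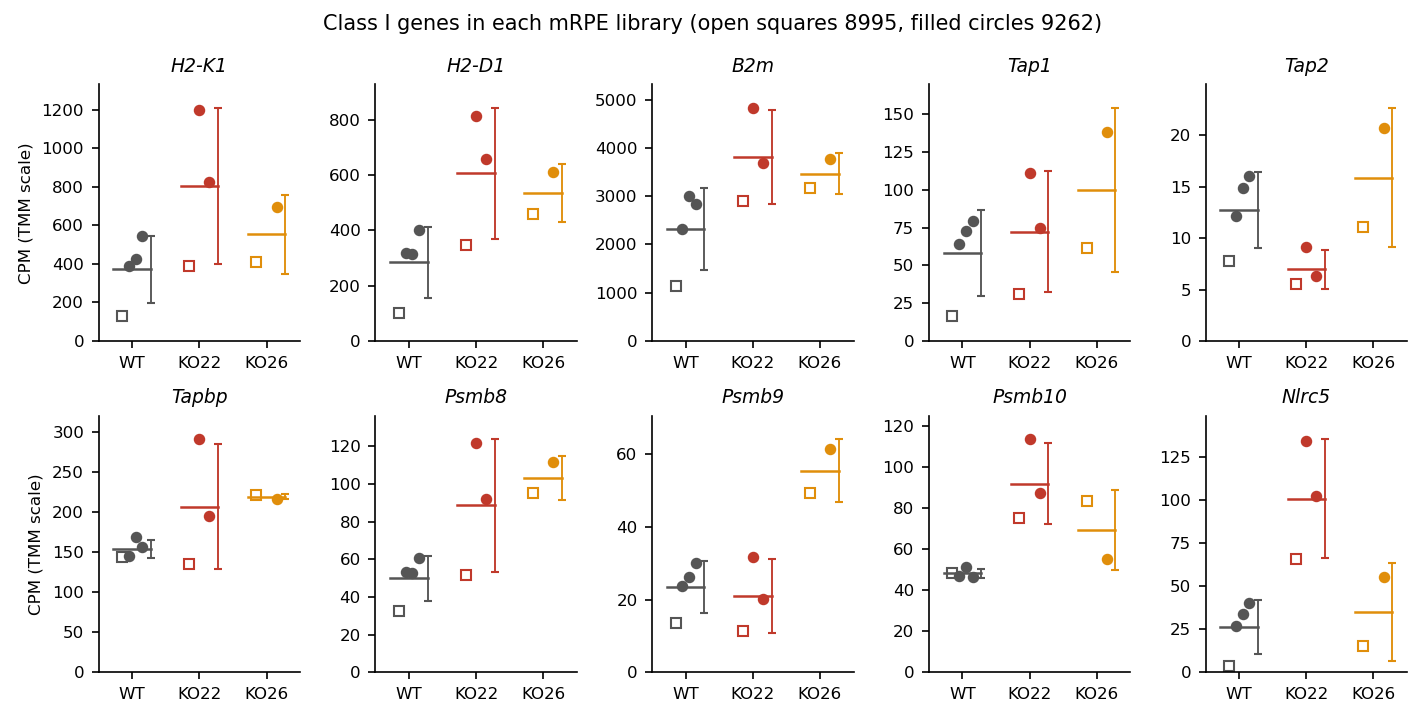
Level of each of the 10 members in every mRPE library, as CPM on the TMM scale from 0, with 1 panel per gene. Points are libraries (open squares 8995, filled circles 9262), horizontal lines are group means and bars are SD (n = 4 WT, 3 KO22 and 2 KO26). The open square is the lowest WT point in 9 of the 10 panels, and *Psmb9* in KO26 and *Nlrc5* in KO22 lie above every WT library.

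Members varied with the submission number as well as with the clone. The 8995 WT library was below all 3 of the 9262 WT libraries for 9 of the 10 members, all but *Psmb10*, which 35.7% of 20737 genes shared. *Nlrc5* was 8.66 times, *Tap1* 4.31 times and *H2-K1* 3.48 times as high in the mean of the 9262 WT libraries as in the 8995 WT library, while *Tapbp* was at 1.09 times and *Psmb10* at 0.995 times. The submission number was a term in the fits, and log2 differences within each number are given beside the called members. With 1 library of each group in 8995 and 1 KO26 library in 9262, these differences have no replicate check in 8995, nor for KO26 in 9262.

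The heavy chain *H2-K1* was at 130.2 CPM in the 8995 WT library and at 387, 426 and 544 CPM in the 9262 WT libraries. In KO22 it was at 388 CPM in 8995 and at 1198 and 825 CPM in 9262, and in KO26 at 409 and 696 CPM. Within each submission number every KO22 and KO26 value was above every WT value, although the pooled groups overlapped. *H2-K1* rose in KO22 by 1.28 ± 0.18 (log2 fold change ± SE, 2.43-fold, adjusted p = 0.000274), with 1.57 within 8995 and 1.15 within 9262. In KO26 the log2 fold change was 1.05 ± 0.24 (adjusted p = 0.0433), short of the fold limit, with 1.65 within 8995 and 0.64 within 9262. The adjusted p of *H2-K1* in KO26 was 0.135, 0.130, 0.114 and 0.0616 without WT replicate 1, 2, 3 or 4, 0.0666 without KO22 replicate 2, 0.315 without KO26 replicate 1 (0.67) and 0.586 with no term for the submission number (0.57).

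*H2-D1*, the second classical heavy chain of this strain, was at 102 CPM in the 8995 WT library and at 319, 315 and 402 CPM in the 9262 WT libraries. KO22 libraries had 346 CPM in 8995 and 812 and 659 CPM in 9262, and KO26 libraries had 460.2 and 609.5 CPM. Both KO26 libraries thus lay above all WT libraries, and the 8995 KO22 library lay within the WT range. It rose in KO22 by 1.29 ± 0.17 on the log2 scale (2.44-fold, adjusted p = 0.000198) and in KO26 by 1.37 ± 0.26 (2.59-fold, adjusted p = 0.0200). Within 8995 and 9262 the differences were 1.76 and 1.09 in KO22 and 2.17 and 0.83 in KO26. Without the 8995 WT library (WT replicate 1) the KO22 fold changes of *H2-K1* and *H2-D1* were 1.15 and 1.08, and without the 8995 KO22 library (KO22 replicate 1) 1.17 and 1.10, all under the fold limit at adjusted p of 4.36e-07 or less, and without KO22 replicate 2 *H2-K1* was at 1.12 (adjusted p = 0.00417). With no term for the submission number, KO22 had 1.11 for *H2-K1* (adjusted p = 0.0669) and 1.09 for *H2-D1* (adjusted p = 0.0506). In that setting *H2-D1* was not called in KO26 either. The KO26 call of *H2-D1* ended without WT replicate 1, 2 or 3 or KO26 replicate 1 (adjusted p 0.0508 to 0.146).

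*B2m*, the light chain common to all class I molecules, was at 1128 CPM in the 8995 WT library, at 2326, 3009 and 2840.2 CPM in the 9262 WT libraries, at 2893, 4832 and 3692 CPM in KO22 and at 3165 and 3767 CPM in KO26. Both KO26 libraries were above all WT libraries. The log2 fold change was 0.85 ± 0.19 in KO22 (adjusted p = 0.00394) and 0.85 ± 0.24 in KO26 (adjusted p = 0.0820), so the light chain was higher in KO22 by adjusted p and under the fold limit in both clones. With no term for the submission number the KO22 value was 0.71 (adjusted p = 0.0882). Within 8995 and 9262 the differences were 1.36 and 0.64 in KO22 and 1.49 and 0.48 in KO26.

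The TAP subunits, which work as a heterodimer, had differences of opposite sign in KO22. *Tap1* was at 16.7 CPM in the 8995 WT library and at 64.1, 72.9 and 79.1 CPM in the 9262 WT libraries, at 31.3, 111 and 74.7 CPM in KO22 and at 61.3 and 138 CPM in KO26. *Tap2* was at 7.83, 12.2, 14.9 and 16.1 CPM in WT, at 5.53, 9.11 and 6.29 CPM in KO22 and at 11.1 and 20.7 CPM in KO26. All 3 KO22 libraries were thus below both KO26 libraries for *Tap2*, and within each submission number they were below WT. In KO22 *Tap1* had a log2 fold change of 0.52 ± 0.17 (adjusted p = 0.0272) and *Tap2* one of -0.78 ± 0.20 (adjusted p = 0.00824), both under the fold limit. The adjusted p of *Tap1* was 0.0540 with another count filter (filterByExpr), 0.0521 in 1 fit over 9 libraries and 0.622 with no term for the submission number. It was 0.0779, 0.0556 and 0.219 without WT replicate 2, WT replicate 3 or KO22 replicate 2. That of *Tap2* was 0.0326 or less in all 14 alternative settings. In KO26 *Tap1* rose by 1.30 ± 0.22 (2.47-fold, adjusted p = 0.0149), with 1.84 within 8995 and 0.94 within 9262, and *Tap2* had 0.48 ± 0.22 (adjusted p = 0.248). The KO26 call of *Tap1* was lost without WT replicate 1 (1.06, adjusted p = 0.0404), WT replicate 2 (adjusted p = 0.0561), WT replicate 3 (adjusted p = 0.0526) or KO26 replicate 1 (1.00, adjusted p = 0.106).

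*Tapbp*, whose product tapasin bridges TAP and the class I heavy chain, varied little across WT libraries, at 144 CPM in 8995 and 146, 168 and 156 CPM in 9262. It was at 135, 290.4 and 195 CPM in KO22 and at 221 and 217 CPM in KO26. Both KO26 libraries exceeded all WT libraries, while KO22 ranged from below WT to above it. The log2 fold change was 0.42 ± 0.18 in KO22 (adjusted p = 0.0722) and 0.60 ± 0.22 in KO26 (adjusted p = 0.154), and neither passed the test.

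Of the immunoproteasome subunits, *Psmb8* and *Psmb10* were higher in KO22 by adjusted p, and *Psmb9* was not. *Psmb9* was at 13.5, 23.9, 26.1 and 30.1 CPM in WT, at 11.4, 31.7 and 20.2 CPM in KO22 and at 49.3 and 61.5 CPM in KO26. KO26 was above all WT and all KO22 libraries, and KO22 overlapped with WT. *Psmb9* had a log2 fold change of -0.09 ± 0.18 in KO22 (adjusted p = 0.68) and rose in KO26 by 1.53 ± 0.23 (2.90-fold, adjusted p = 0.0101), with 1.83 within 8995. The fit of the 9262 libraries alone, which holds 1 KO26 library, gave 1.21.

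*Psmb8* was at 32.5, 53.1, 52.8 and 60.8 CPM in WT, at 51.8, 122 and 92.1 CPM in KO22 and at 95.0 and 111 CPM in KO26. KO26 was again above every WT library, and the 8995 KO22 library was within the WT range. In KO22 *Psmb8* had a log2 fold change of 0.86 ± 0.13 (adjusted p = 0.000439), under the fold limit, and in KO26 it rose by 1.28 ± 0.19 (2.43-fold, adjusted p = 0.00921), with 1.53 within 8995 and 1.00 within 9262. Without KO26 replicate 1, which leaves 1 library of this clone, the KO26 calls of *Psmb8* (adjusted p = 0.0611) and *Psmb9* (adjusted p = 0.0703) were lost. *Psmb10* was at 48.5, 47.0, 51.4 and 46.4 CPM in WT, at 75.1, 113 and 87.1 CPM in KO22 and at 83.2 and 55.4 CPM in KO26. Both clones lay above WT in every library, and *Psmb10* had a log2 fold change of 0.93 ± 0.13 in KO22 (adjusted p = 0.000325) and 0.52 ± 0.20 in KO26 (adjusted p = 0.189).

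*Nlrc5*, the class I transactivator, had the largest change of the 10 members in KO22 and the widest relative range among WT libraries. It was at 3.89 CPM in the 8995 WT library and at 27.0, 34.0 and 40.1 CPM in the 9262 WT libraries. KO22 had 65.4 CPM in 8995 and 134 and 102 CPM in 9262, and KO26 had 15.1 and 55.3 CPM. All KO22 libraries were above all WT and all KO26 libraries. *Nlrc5* rose in KO22 by 2.40 ± 0.37 on the log2 scale (5.27-fold, adjusted p = 0.000545), with 3.91 within 8995 and 1.80 within 9262, and in all 14 alternative settings tried it kept that direction at an adjusted p of 0.0171 or less. In KO26 the log2 fold change was 0.91 ± 0.40 (adjusted p = 0.233), and the test was not passed. KO22 and KO26 libraries that did not overlap with WT on the high side were found for 2 and 6 members, beside 24.8% and 11.9% of all genes, and on the low side for 0 in either clone (25.3% and 12.8%).

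Chromosome 8, which carries *Nlrc5* and *Psmb10*, stood above chromosomes 2 and 17 in KO22. In KO22, 223 of its 1087 tested genes were higher and 62 lower, beside 11.4% and 13.8% of all genes. Their median log2 fold change was 0.60, against -0.04 on chromosome 17 and 0.14 on chromosome 2. It was 0.83 for the 42 genes within 1 Mb of *Nlrc5*, of which 14 rose and 0 fell, and 0.64 for the 69 genes within 1 Mb of *Psmb10*. In KO26 the chromosome 8 median was 0.02. The part of the chromosome in the *Nlrc5* and *Psmb10* values was not tested.

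**Figure D2:**
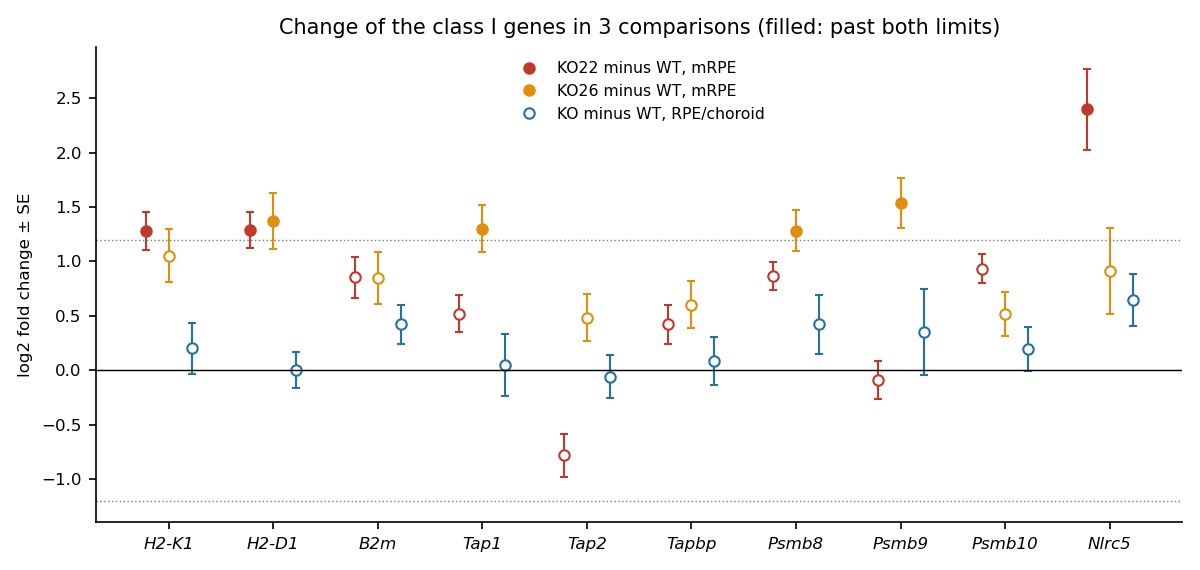
Log2 fold change (vertical axis, points) with SE (bars) of each member in KO22 and KO26 against WT mRPE and in KO against WT RPE/choroid. Filled points passed both limits and dotted lines mark a log2 fold change of 1.2 in either direction. *Nlrc5* in KO22 is the highest point at 2.40, *Tap2* in KO22 the lowest at -0.78, and all RPE/choroid points are open.

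The clones were compared with each other in the 9-library fit. *Nlrc5* was higher in KO22 than in KO26 by 1.51 ± 0.42 on the log2 scale (2.84-fold, adjusted p = 0.0188). *Psmb9* was 3.10-fold lower in KO22 (log2 difference -1.63 ± 0.24, adjusted p = 0.000619) and *Tap2* was 2.40-fold lower (-1.26 ± 0.23, adjusted p = 0.00204). *Tap1* was lower by adjusted p only (-0.81 ± 0.23, adjusted p = 0.0198). Thus 1 of 10 members was higher (7.56% of 20737 genes) and 2 were lower (10.7%), or 1 (16.3%) and 3 (18.1%) by adjusted p alone and 4 at an unadjusted p under 0.05 (44.2%). The groups did not overlap for 1 member on the high side (23.4%) and 2 on the low side (24.6%), while the heavy chains, *B2m*, *Tapbp*, *Psmb8* and *Psmb10* differed by -0.42 to 0.41 and did not pass the test. The *Nlrc5* call did not hold without KO22 replicate 1 (0.78, adjusted p = 0.0263), KO26 replicate 1 (1.46, adjusted p = 0.0976) or KO26 replicate 2 (1.54, adjusted p = 0.0937), and the *Tap2* call did not hold without KO22 replicate 3 (-1.09) or KO26 replicate 2 (-1.16), where the fold change was under the limit.

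The constitutive proteasome subunits that *Psmb8*, *Psmb9* and *Psmb10* replace are *Psmb5*, *Psmb6* and *Psmb7*. In KO22 all of them rose, by 1.51 ± 0.26, 1.22 ± 0.22 and 1.28 ± 0.20 on the log2 scale (adjusted p = 0.000909, 0.00118 and 0.000505). The differences were smaller within 8995, at 0.54, 0.27 and 0.46, than within 9262, at 1.82, 1.59 and 1.60. Of 19 proteasome partners tested, 7 rose in KO22 (11.4% of all genes) and 0 fell (13.8%). Those that rose included *Psma7* (1.47), *Psma5* (1.40) and *Psmb2* (1.34) of the catalytic core, and the median of the 19 was 1.12 against -0.03 over all genes. In KO26, 0 of 19 were called by edgeR or DESeq2, with 4 higher and 0 lower at an unadjusted p under 0.05 (20.1% of all genes, either way). The interferon-inducible activator genes had log2 fold changes of 0.25 ± 0.15 (*Psme1*, adjusted p = 0.181) and 0.55 ± 0.11 (*Psme2*, adjusted p = 0.00176, under the fold limit) in KO22, and of 0.66 ± 0.20 and 0.61 ± 0.20 in KO26 (adjusted p = 0.105 and 0.132).

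Per length, the *Psmb9* to *Psmb6* ratio was 0.0785 in the 8995 WT library and 0.252, 0.273 and 0.312 in the 9262 WT libraries. It was 0.0550, 0.111 and 0.0687 in KO22, and 0.172 and 0.601 in KO26. Within each submission number KO22 was lowest and KO26 highest. The *Psmb8* to *Psmb5* ratio was 1.51, 4.48, 4.16 and 6.10 in WT, 1.63, 3.20 and 1.90 in KO22 and 2.21 and 8.30 in KO26. The *Psmb10* to *Psmb7* ratio spanned a narrower range, 1.76 to 2.52 in WT, 1.41 to 1.98 in KO22 and 2.05 to 2.38 in KO26. These ratios are a description and were not tested.

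**Figure D3:**
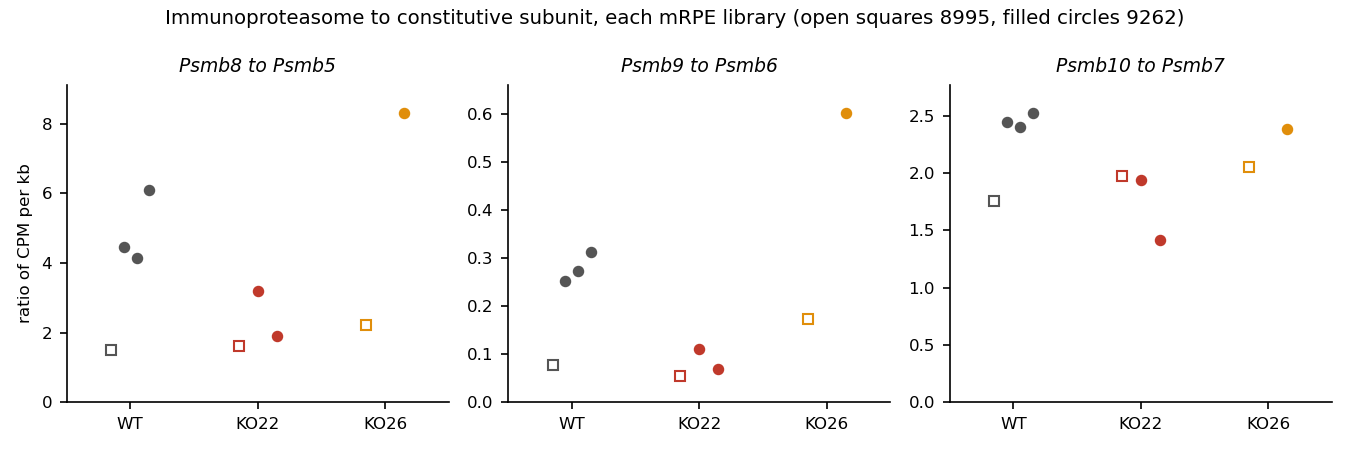
Ratio of the level per kilobase of each immunoproteasome subunit to its constitutive counterpart in every mRPE library, on linear axes from 0. Open squares are 8995 libraries and filled circles 9262 libraries. For *Psmb9* to *Psmb6*, KO22 lies between 0.0550 and 0.111 and KO26 at 0.172 and 0.601.

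Among the class I paralogs, *H2-T23*, which encodes the Qa-1 molecule recognised by NK receptors, was at 92.0 ± 38.7 CPM in WT (SD, n = 4), 39.5 ± 14.4 CPM in KO22 and 103 ± 51.2 CPM in KO26. Its log2 fold change was -1.05 ± 0.16 in KO22 (adjusted p = 0.000519, under the fold limit) and it was lower in KO22 than in KO26 (log2 difference -1.56 ± 0.19, adjusted p = 0.000164). Of 14 paralogs tested, 2 rose in KO22 (*H2-Q6*, at 0.174 CPM in WT, and the lipid-presenting *Cd1d1*) and 1 fell (*Fcgrt*, the neonatal Fc receptor, -1.86 ± 0.18), beside 11.4% and 13.8% of all genes. In KO26 1 rose, *H2-Q4* (1.23 ± 0.20, adjusted p = 0.0129), and 0 fell, beside 1.21% and 0.719% of all genes. At an unadjusted p under 0.05, 9 were higher and 0 lower (20.1% of all genes, either way), and DESeq2 called 2 and 0. Between the clones 6 of 14 were lower in KO22 (10.7% of all genes), among them *H2-T10* (-1.99 ± 0.29) and *Fcgrt* (-1.78 ± 0.20). The paralog median was -0.40 in KO22, 0.87 in KO26 and -0.92 between the clones, against -0.03, 0.03 and 0.00 over all genes.

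Of 13 peptide loading and trimming partners, 1 rose in KO22, the chaperone *Calr* (1.21 ± 0.14, adjusted p = 9.76e-05), and 0 fell, beside 11.4% and 13.8% of all genes. The aminopeptidase *Erap1*, which trims class I peptides, had log2 fold changes of 0.08 ± 0.12 in KO22 and -0.13 ± 0.15 in KO26 (adjusted p = 0.61 and 0.649). In KO26, 0 of the 13 were called by edgeR or DESeq2. At an unadjusted p under 0.05, 2 were higher and 0 lower (20.1% of all genes, either way).

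Among regulators of class I transcription, *Irf7*, an interferon-induced transcription factor, rose by 1.29 ± 0.19 in KO22 (adjusted p = 0.000332) and 1.85 ± 0.29 in KO26 (adjusted p = 0.0110). *Irf1*, a direct activator of class I promoters, had -0.13 ± 0.14 and 0.20 ± 0.16, and *Irf2* -0.09 ± 0.16 and -0.18 ± 0.19. *Rfx5*, a subunit of the complex that binds the X box beside Nlrc5, had 0.03 ± 0.13 and 0.16 ± 0.17. *Ifngr1*, a chain of the interferon-gamma receptor, fell in KO22 (-1.21 ± 0.12, adjusted p = 4.13e-05), and *Stat2* was lower in KO22 than in KO26 (-1.48 ± 0.28, adjusted p = 0.00228). Of 31 regulators tested, 1 rose (11.4% of all genes) and 1 fell (13.8%) in KO22 past both limits. By adjusted p alone 14 were higher (26.9%) and 5 lower (26.1%) there. In KO26, 1 rose (1.21%) and 0 fell (0.719%), with 5 higher and 0 lower at an unadjusted p under 0.05 (20.1%, either way) and 1 and 0 called by DESeq2.

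Of 41 interferon-induced genes outside the class I set, 1 was higher (7.56% of all genes) and 6 were lower (10.7%) in KO22 than in KO26. Against WT, 6 rose and 1 fell in KO22 (median log2 fold change 0.32), and 5 rose and 0 fell in KO26, with a median of 0.90 and 24 higher and 0 lower at an unadjusted p under 0.05. *Cxcl10*, a chemokine for activated T cells, rose in KO22 by 3.28 ± 0.46 (adjusted p = 0.00028) and *Gbp4*, a GTPase induced by interferon-gamma, fell (-1.47 ± 0.34, adjusted p = 0.00504). *Cxcl9* rose in KO26 by 3.15 ± 0.39 (adjusted p = 0.00491) and *Oas3*, an antiviral RNA sensor, by 2.36 ± 0.42 (adjusted p = 0.0171). The 2 KO26 libraries were far apart for *Cxcl9*, at 13.2 ± 15.7 CPM (SD), beside 2.28 ± 1.66 CPM in WT and 1.70 ± 1.53 CPM in KO22. They were also far apart for *Gbp4*, at 105 ± 96.1 CPM. Directly compared, *Cxcl10* was higher in KO22 than in KO26 by 1.64 ± 0.50, and *Cxcl9* and *Gbp4* were lower (-3.45 ± 0.45 and -2.31 ± 0.37, adjusted p = 0.0270, 0.000256 and 0.000942). The summed level of this list was 1412 to 6493 CPM in WT, 3890 to 8916 CPM in KO22 and 4253 to 9515 CPM in KO26.

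In RPE/choroid no member passed the test. edgeR called 0 of 10 members higher (0% of 24926 genes tested) and 0 lower (0.189%), DESeq2 called 0 and 0, and at an unadjusted p under 0.05 there were 2 higher and 0 lower (8.3% of all genes, either way). By adjusted p alone the counts were 0 (0%) and 0 (0.193%). The members' median log2 fold change was 0.20 against 0.01 over all genes, and 9 of 10 were positive. Because the tissue was measured in bulk, fewer cells of a type and less RNA per cell cannot be told apart.

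*Nlrc5* was at 2.44, 2.62 and 1.73 CPM in WT and at 3.07, 4.49 and 3.05 CPM in KO. *B2m* was at 328, 335 and 262 CPM in WT and at 349.9, 438 and 449.9 CPM in KO. For these 2 members all KO libraries were above all WT libraries, beside 6.71% of all genes, and 0 members were apart on the low side (7.89%). Neither passed the test, with log2 fold changes of 0.65 ± 0.24 for *Nlrc5* (adjusted p = 0.534) and 0.42 ± 0.18 for *B2m* (adjusted p = 0.596). Without KO replicate 3, the library with the high mitochondrial rRNA share, they were 0.72 (adjusted p = 0.465) and 0.34 (adjusted p = 0.635), and 0 members were called.

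The heavy chains overlapped between the groups. *H2-K1* was at 31.5, 33.7 and 24.8 CPM in WT and at 31.5, 46.3 and 25.4 CPM in KO, and *H2-D1* at 59.5, 63.9 and 51.2 CPM in WT and at 49.2, 68.8 and 56.8 CPM in KO. Their log2 fold changes were 0.20 ± 0.24 (adjusted p = 0.877) and 0.00 ± 0.17 (adjusted p = 0.999). The TAP subunits were at 4.65 to 7.05 CPM (*Tap1*) and 3.47 to 4.45 CPM (*Tap2*) in WT, with log2 fold changes of 0.05 ± 0.29 and -0.06 ± 0.20, and *Tapbp* at 8.57 to 12.5 CPM with 0.08 ± 0.22. *Psmb8* was at 7.11, 6.11 and 3.96 CPM in WT and at 5.65, 9.57 and 7.83 CPM in KO (0.42 ± 0.27, adjusted p = 0.749). *Psmb9* and *Psmb10* had log2 fold changes of 0.35 ± 0.39 and 0.19 ± 0.20 (adjusted p = 0.866 and 0.858). KO replicate 2 held the highest KO value of every member except *B2m*.

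**Figure D4:**
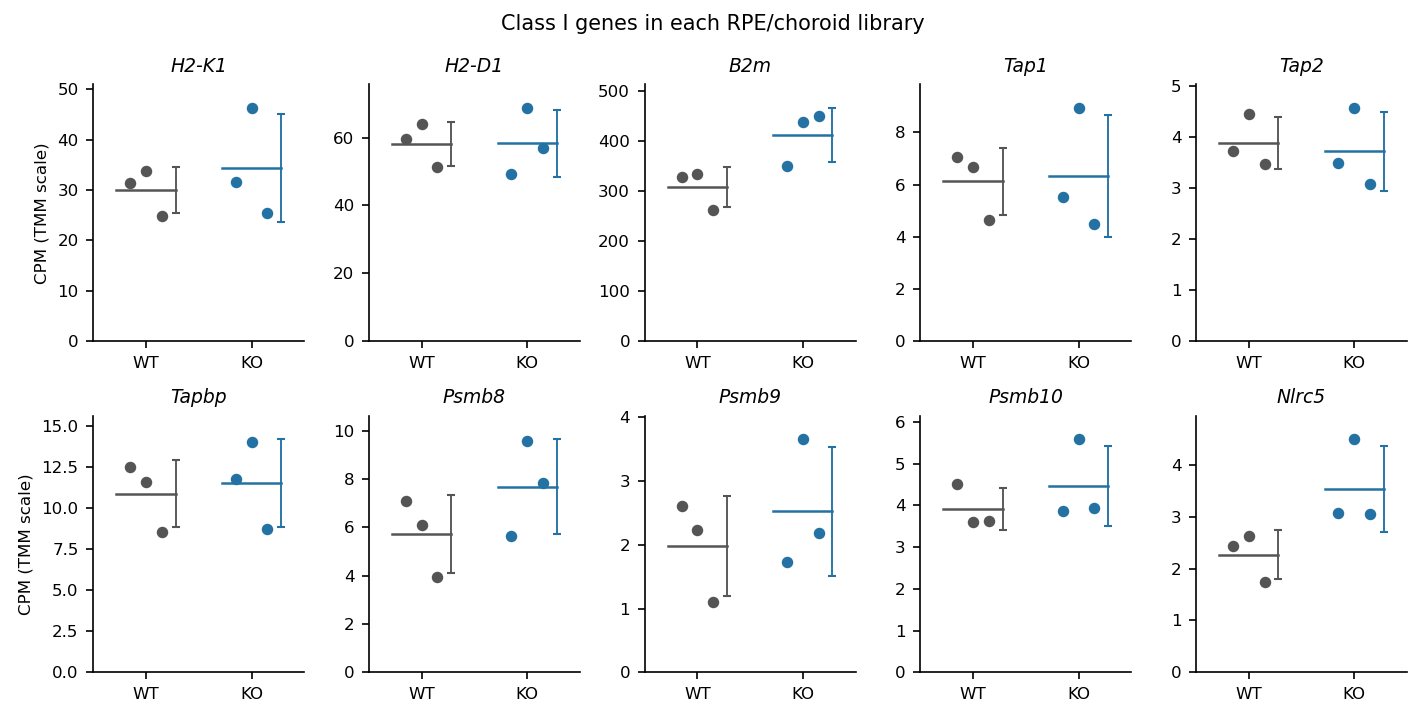
Level of each member in every RPE/choroid library, as CPM on the TMM scale from 0. Points are libraries, horizontal lines are means and bars are SD (n = 3 WT and 3 KO). The KO and WT points do not overlap for *B2m* and *Nlrc5* and overlap for the other 8 members.

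Cell type markers were measured in the same libraries. *Rpe65*, the visual cycle isomerase whose promoter drives the Cre, was at 279.8, 204 and 287 CPM in WT and at 1.13, 5.97 and 4.48 CPM in KO (log2 fold change -6.06 ± 0.62, adjusted p = 0.0191), and the 11 RPE markers summed to 1190.2 to 1901 CPM in WT and 382 to 535 CPM in KO. The 15 leukocyte markers listed summed to 141 to 172 CPM in WT and 152 to 185 CPM in KO, and *Ptprc*, the pan-leukocyte surface phosphatase, was at 11.3, 17.7 and 13.6 CPM in WT and at 19.8, 18.3 and 24.0 CPM in KO (0.54 ± 0.19, adjusted p = 0.503). Of the 15, 12 had a positive log2 fold change (median 0.51), and edgeR and DESeq2 called 0, with 5 higher and 1 lower at an unadjusted p under 0.05. The 7 endothelial markers summed to 94.4 to 188 CPM in WT and 65.2 to 83.4 CPM in KO, so these sums did not overlap. None of the 7 had a positive log2 fold change (median -0.65), and edgeR called 0, with 0 higher and 5 lower at an unadjusted p under 0.05 and 1 lower by DESeq2. Among them *Pecam1* ranged from 8.08 to 18.0 CPM in WT and from 7.86 to 10.3 CPM in KO. The part of these markers in the member values was not tested. Over all genes, 8.3% had an unadjusted p under 0.05 in RPE/choroid, either way. Among the tissue's other lists edgeR called 0 interferon-induced genes (of 41, with 14 higher and 0 lower at an unadjusted p under 0.05, and 1 higher and 0 lower by DESeq2) and 0 class I paralogs (of 14, with 1 higher and 1 lower, and 0 higher and 1 lower by DESeq2). It also called 0 proteasome partners (of 19, with 1 and 0), 0 loading partners (of 13, with 0 and 0) and 0 regulators (of 32, with 3 and 0), where DESeq2 called 0 as well. *Psme1*, a proteasome activator subunit, was at 24.4 ± 1.25 CPM in WT and 43.1 ± 12.4 CPM in KO (SD, n = 3 each), with the groups apart (log2 fold change 0.82 ± 0.20, adjusted p = 0.273).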

How the data were processed

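RNA-seq was analysed in 9 mRPE and 6 RPE/choroid libraries. Whole-number read counts per gene were deposited by the authors in a table for each, made with Trim Galore 0.6.7 and STAR on mm39 per the submitters' notes. The labels name an NEB kit and the methods a TruSeq Stranded mRNA kit, and the strand setting of the counting was not given in the sources used here. The authors' normalized tables and fold changes were not used. The members and gene lists were chosen with earlier results of these data known.

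A gene entered a fit when 3 or more of its libraries held 5 or more counts, and was tested in edgeR 4.0.16 (R 4.3.3, limma 3.58.1), by the quasi-likelihood test with TMM normalization. The submission number was a term in the mRPE fits. KO22 against WT used 7 libraries, and fits with KO26 used all 9. The limits were a Benjamini-Hochberg adjusted p under 0.05 over all genes tested and an absolute log2 fold change over 1.2. Within-number differences used a pseudocount of 0.5 CPM. In simulated data, 200 genes were given a true log2 difference of 2. The fits recovered 185 for KO22 against WT (20165 genes) and 188 for KO26 against WT (20506). They recovered 175 for KO22 against KO26 (20523) and 181 for RPE/choroid (24511). False calls numbered 4, 11, 15 and 15 in the same order. Smaller differences, which most members had, were not simulated, so their recovery is not known.

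Named genes were the 10 members, *Prom1*, a fixed set of related genes, up to 4 genes per list with the largest change in each direction past both limits, and the 5 genes most like *H2-K1*; some of the fixed set are not reported here. Alternatives were DESeq2 1.42.0 and its size factors, other count filters, no fold limit, no submission term, 9262 alone, 1 fit over 9 libraries for KO22 against WT, and each library left out in turn. Library totals without mitochondrial genes, for RPE/choroid, were added after seeing the data.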

Additional observations from a re-analysis of the deposited data

Results flagged for a closer look

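In the direct test of KO22 against KO26 (edgeR, adjusted p under 0.05), 1 of 10 members was higher (16.3% of all genes) and 3 were lower (18.1%). At an unadjusted p under 0.05, 4 of 10 members differed beside 44.2% of all genes, so members did not differ more often than genes in general. The log2 difference, KO22 minus KO26, was 1.51 for *Nlrc5*, -0.81 for *Tap1*, -1.26 for *Tap2* and -1.63 for *Psmb9*. *Psmb9* and *Tap1* share a promoter region and a stretch of 743 bases on opposite strands. For *Psmb9* and *Tap2* both values within a submission number had the same sign (-2.06 and -1.27 for *Psmb9*, -0.94 and -1.39 for *Tap2*), as did those of *Tap1* (-0.96 and -0.60) and *Nlrc5* (2.08 and 1.08). Stromal markers, the endothelial marker *Kdr* and the chromosome 8 median also differed between the clones, and their part was not tested. All KO26 libraries in this test are ones the paper removed as outliers.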

How the results depend on the processing

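Of the member values under the alternatives, 130 of 140 for KO22 against WT, 132 of 150 for KO26 against WT, 130 of 150 for KO22 against KO26 and 96 of 110 for RPE/choroid kept their direction and whether they passed both limits together. Values that crossed the adjusted p limit while under the fold limit, such as *Tap1* in KO22, are counted as kept. Without a fold limit, KO22 gave 5506 genes higher and 5331 lower with 7 members higher and 1 lower, KO26 gave 490 and 235, and KO22 against KO26 gave 3388 and 3744. With no term for the submission number, the members higher were 1 in KO22 and 0 in KO26, with 123 genes higher and 71 lower in KO26. KO22 against KO26 then had 0 members higher and 1 lower, and *H2-D1* (0.18) and *B2m* (0.13) reversed. With 9262 alone, which leaves 1 KO26 library, 1 member was higher in KO22 and 1 in KO26, with 425 genes higher and 256 lower in KO26, and 0 members were higher in KO22 against KO26, where *H2-D1* (0.25), *B2m* (0.16) and *Tapbp* (0.14) reversed. DESeq2 called 269 genes lower in KO26. The cause was not tested.

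Leaving out each library, members higher in KO22 ran from 1 (without WT replicate 1 or KO22 replicate 1) to 3, and *Psmb9* from -0.38 to 0.0189. In KO26 members higher ran from 0 (without KO26 replicate 1) to 5 (without KO26 replicate 2), with 2 without WT replicate 1, 2 or 3, and genes higher ran from 68 to 471 and lower from 32 to 407. Between the clones members higher ran from 0 to 1 and lower from 1 to 2, *H2-K1* from -0.22 to 0.61, *H2-D1* from -0.63 to 0.39, *B2m* from -0.36 to 0.31 and *Tapbp* from -0.43 to 0.13. Where 1 KO26 library was left, it was assumed to vary like the other groups.

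In RPE/choroid DESeq2 called 83 genes higher and 188 lower, filterByExpr left 1 higher, and totals without mitochondrial genes gave 1 higher. *H2-D1*, at 0.00, was -0.00085 with DESeq2's size factors, -0.00068 by DESeq2 and -0.0125 without mitochondrial genes. Leaving out each library gave 0 to 5 genes higher and 9 to 37 lower, with *H2-K1* from -0.0732 to 0.36, *H2-D1* from -0.13 to 0.10, *Tap1* from -0.29 to 0.23, *Tap2* from -0.24 to 0.0497, *Tapbp* from -0.0825 to 0.23, *Psmb9* from -0.0212 to 0.60 and *Psmb10* from -0.0022 to 0.31. Depth was uneven: KO replicate 3 held 9776466 counts outside mitochondrial genes against 13814072 to 19655673 in the others. No paired analysis was possible because no label ties single libraries of different groups to each other beyond the submission number, which was a term in the fits.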

Other observations

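MHC class II genes, which present peptides to CD4+ T cells, were examined beside the class I set. In mRPE 7 of 11, including the chains *H2-Aa* and *H2-Ab1*, had no row in the table used here. Of the 4 tested, *H2-DMb1*, a chain of the class II peptide exchange factor, fell in KO22, from 3.81 ± 0.563 CPM (SD, n = 4) to 0.286 ± 0.0256 CPM (n = 3; log2 fold change -3.70 ± 0.31, edgeR adjusted p = 1.49e-05), and 0 rose. In RPE/choroid the 10 class II genes summed to 53.8 to 83.5 CPM in WT and 134, 117 and 252 CPM in KO replicates 1, 2 and 3. The highest value was that of KO replicate 3, the library with 80.4% mitochondrial rRNA, and 12 of 15 leukocyte markers also had positive log2 fold changes (median 0.51). Their part in the class II values was not tested. All 10 had a positive log2 fold change, with a median of 1.25 against 0.01 over all genes. edgeR called 0 of them, and DESeq2 called 3 higher and 0 lower. At an unadjusted p under 0.05, 8 were higher and 0 lower (8.3% of all genes, either way). *Cd74*, the invariant chain, had 0.87 ± 0.21 (adjusted p = 0.255) and *Ciita*, the class II transactivator, 0.67 ± 0.26 (adjusted p = 0.557).

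The gene whose level most resembled *H2-K1* over the 9 mRPE libraries was *H2-D1*, with a root mean square difference of 0.20 in centred log2 CPM among 20736 genes compared. *B2m* ranked 17, *Tap1* 54 and *Psmb8* 59, while *Psmb9* ranked 3638 and *Tap2* 9304. Outside the members the most alike were *Helz2* (0.21), *Slfn9* (0.26), *Ifi202b* (0.28), *Ifi211* (0.29) and *Gm6548* (0.31). These libraries share clones and submission numbers, so the ranks are a description.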
